A study of Homo sapiens with 14 samples.

Results

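The genes described here are 10 heat shock chaperone genes: HSPA1A, HSPA1B, HSPA8, HSPH1, DNAJB1, HSP90AA1, HSP90AB1, HSPB1, HSPD1 and HSPE1. They were chosen by gene name and are 10 of the 57820 genes in the deposited tables. The study developed a nascent RNA sequencing method in HEK293T cells, a human embryonic kidney cell line, in which 4-thiouridine (s4U) taken up into new RNA is alkylated with acrylonitrile and then read as C. In the conversion experiment, polyadenylated RNA was sequenced in 4 groups of 2 libraries each: s4U labeling for 24 h with acrylonitrile treatment of the RNA, s4U labeling without acrylonitrile, acrylonitrile treatment of unlabeled RNA, and neither. The labels give 50 µM s4U for the group without acrylonitrile and 500 µM for the group with it, whereas the protocol gives 50 µM for both, so the dose with acrylonitrile cannot be settled here. In the PDP experiment, cells received 0, 4 or 8 µM PDP, a G-quadruplex-binding analog of pyridostatin, 20 min before 1 h of 500 µM s4U, with 2 libraries a dose, and all of these libraries were treated with acrylonitrile. Nothing in the labels says that replicates came from separate cultures, so the p-values here rest on a spread that may be technical.

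Heat shock chaperones hold other proteins in a foldable state, refold them or pass them on for degradation. HSP70 proteins bind short unfolded stretches in an ATP cycle that J-domain proteins start and nucleotide exchange factors end, HSP90 proteins act later on folded clients, small heat shock proteins hold unfolded proteins without ATP, and HSP60 with its HSP10 lid folds proteins inside mitochondria. Under heat or proteotoxic stress the transcription factor HSF1 binds heat shock elements, inverted repeats of the unit nGAAn, and induces most of these genes, whereas in unstressed growing cells several are also made constitutively.

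Conversion libraries held 6074118 to 17228999 fragments and PDP libraries 9770956 to 22363992. In the conversion experiment, 90.6% of fragments lay inside genes in both untreated libraries, and 85.8% and 88.3% with s4U alone. With acrylonitrile the share was lower, at 70.9% and 68.6% without s4U and 70.7% and 68.4% with it, so it cannot be told apart from acrylonitrile treatment. The 2 libraries without PDP were the shallowest of their experiment (9770956 and 10564894 fragments), and the share of fragments inside genes was 82.6% and 83.0% at 0 µM, 89.7% and 88.8% at 4 µM, and 88.3% and 86.5% at 8 µM, so that depth and this share cannot be told apart from PDP. Replicates of the s4U-alone group stood apart most: the median absolute log2 ratio of its 2 libraries was 0.26, with 4.64% of genes over 2-fold apart, against 0.071 in untreated RNA. All 7 HEK293T marker genes were detected in every group (summed 379 to 1078 CPM), and blood markers were at or near 0. Of 6 marker genes of MCF7, the study's other cell line, 3 to 6 had a fragment in each group, summing to 28.2 to 122 CPM. KRT19 had none outside the group at 0 µM PDP. TFF1 had none after 24 h of s4U, with or without acrylonitrile, or at 4 or 8 µM PDP. PGR had none with s4U and acrylonitrile. Liver markers summed to 57.8 to 154 CPM with acrylonitrile alone, 20.2 to 39.4 with s4U and acrylonitrile, 6.97 to 9.91 with s4U alone and 13.3 to 13.6 in untreated RNA, and to at most 0.984 in the PDP libraries; their part in the results was not tested. In bulk RNA, fewer expressing cells and less RNA per cell cannot be told apart.

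RefSeq promoter windows of 300 bases, from 250 before to 50 after each annotated start on GRCh38.p14, were found for all 10 genes (16 windows). They are shown because heat shock elements near the start are how HSF1 reaches its targets, and the windows differ in them. A full 3-unit heat shock element, GAANNTTCNNGAA or its reverse complement TTCNNGAANNTTC, occurred in 1 window each of HSPA8, HSP90AB1, HSP90AA1 and HSPD1, against 172 of 35116 promoters (0.49%). In the first 4 windows, capitals mark these elements, and in that of HSPD1 a pair of matches overlap. The fifth is the middle one of 3 windows of DNAJB1, which holds no full match and is shown because its labeled RNA fell most with PDP among the members with over 100 labeled fragments a library.
HSPA8, chr11:123062087-123062386, minus strand: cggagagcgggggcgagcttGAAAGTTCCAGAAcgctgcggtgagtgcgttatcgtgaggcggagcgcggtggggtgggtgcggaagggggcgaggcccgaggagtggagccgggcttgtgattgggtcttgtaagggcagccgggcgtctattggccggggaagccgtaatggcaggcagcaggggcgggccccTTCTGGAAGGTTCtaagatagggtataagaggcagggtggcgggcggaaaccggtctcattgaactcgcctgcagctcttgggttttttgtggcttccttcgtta
HSP90AB1, chr6:44247693-44247992, plus strand: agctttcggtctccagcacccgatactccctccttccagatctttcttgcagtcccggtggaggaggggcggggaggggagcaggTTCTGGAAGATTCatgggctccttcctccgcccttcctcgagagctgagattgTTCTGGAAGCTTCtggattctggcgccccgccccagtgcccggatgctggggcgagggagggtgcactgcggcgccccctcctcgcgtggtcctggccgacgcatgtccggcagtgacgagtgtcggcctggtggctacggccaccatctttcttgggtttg
HSP90AA1, chr14:102086995-102087294, minus strand: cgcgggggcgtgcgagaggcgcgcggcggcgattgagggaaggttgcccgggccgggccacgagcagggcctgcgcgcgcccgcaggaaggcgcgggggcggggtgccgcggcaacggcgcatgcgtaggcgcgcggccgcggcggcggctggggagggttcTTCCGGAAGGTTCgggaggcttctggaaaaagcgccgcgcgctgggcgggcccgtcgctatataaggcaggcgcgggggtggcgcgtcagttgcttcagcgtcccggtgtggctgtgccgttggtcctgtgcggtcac
HSPD1, chr2:197499791-197500090, minus strand: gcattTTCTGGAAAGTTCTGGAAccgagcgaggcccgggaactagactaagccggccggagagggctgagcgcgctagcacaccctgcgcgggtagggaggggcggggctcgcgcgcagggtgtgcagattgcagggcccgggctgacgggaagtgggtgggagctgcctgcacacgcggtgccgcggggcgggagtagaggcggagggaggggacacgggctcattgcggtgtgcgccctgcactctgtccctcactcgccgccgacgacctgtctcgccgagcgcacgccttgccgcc
DNAJB1, chr19:14518348-14518647, minus strand: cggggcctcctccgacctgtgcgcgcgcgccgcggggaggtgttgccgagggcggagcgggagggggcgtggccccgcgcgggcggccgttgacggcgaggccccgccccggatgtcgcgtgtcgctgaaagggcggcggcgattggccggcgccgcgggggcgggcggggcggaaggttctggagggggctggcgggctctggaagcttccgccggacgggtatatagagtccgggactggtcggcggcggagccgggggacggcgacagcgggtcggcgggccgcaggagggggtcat

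Counted from the start, the elements of HSPA8 began at −230 and −55, those of HSP90AB1 at −165 and −112, that of HSP90AA1 at −88 and the overlapping pair of HSPD1 at −245 and −240. No full match was in the windows of DNAJB1, HSPH1, HSPB1, HSPE1, HSPA1A or HSPA1B, which says only that these letters are not there. A G-quadruplex motif was taken as 4 runs of at least 3 G with loops of 1 to 7 bases on either strand. Among the 16 windows of the members, it occurred in 1 window each of HSPD1, HSPB1 and HSP90AA1, against 25% of all promoter windows. The inducible HSP70 genes HSPA1A and HSPA1B lie side by side and encode nearly the same protein. Their windows are shown because the same likeness runs through the transcripts and limits what could be counted: 277 of 299 aligned bases (92.6%) were equal, capitals mark the 22 that differ, and both hold TATAAA, as do 7.33% of promoters.
HSPA1A, chr6:31815293-31815592, plus strand: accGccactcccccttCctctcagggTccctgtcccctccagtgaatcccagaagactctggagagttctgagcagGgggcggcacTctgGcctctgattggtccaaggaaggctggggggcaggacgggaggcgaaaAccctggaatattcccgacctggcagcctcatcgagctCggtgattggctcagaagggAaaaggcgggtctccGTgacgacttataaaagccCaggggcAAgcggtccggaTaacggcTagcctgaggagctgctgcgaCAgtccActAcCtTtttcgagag
HSPA1B, chr6:31827488-31827787, plus strand: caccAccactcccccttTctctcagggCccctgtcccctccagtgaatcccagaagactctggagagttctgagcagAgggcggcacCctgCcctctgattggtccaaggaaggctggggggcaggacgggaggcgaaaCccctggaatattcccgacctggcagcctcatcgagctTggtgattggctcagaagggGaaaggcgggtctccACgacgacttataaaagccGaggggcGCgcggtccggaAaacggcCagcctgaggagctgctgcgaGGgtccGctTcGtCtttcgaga

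The fragments were counted on GRCh37. On that build HSPA1A spans chr6:31783291-31785723 and HSPA1B chr6:31795512-31798031, both on the plus strand. Of all 100-base windows of the HSPA1A transcript, 72.4% also occur elsewhere in the annotated transcripts, as do 72.8% of those of HSPA1B, and only uniquely mapped pairs were counted. HSPA1A had 0 to 3 fragments in each conversion library and 3 to 10 in each PDP library. It passed no filter on low counts, and its level and shares are not interpreted. HSPD1 (chr2:198351305-198381461, minus strand) spans HSPE1 (chr2:198364718-198368181, plus strand). Of HSPE1 windows, 31.7% also occur in transcripts of other genes, most of them in the read-through gene HSPE1-MOB4. Windows shared with a read-through transcript bear on which gene a fragment is counted for, not on unique mapping. At most 6.05% of windows were shared for the other 7 members: HSP90AB1 (chr6:44214824-44221620, plus), HSPB1 (chr7:75931861-75933612, plus), HSPA8 (chr11:122928197-122933938, minus), HSPH1 (chr13:31710762-31736525, minus), HSP90AA1 (chr14:102547075-102606036, minus), DNAJB1 (chr19:14625582-14640582, minus) and HSPD1. Fragments of pseudogenes named after HSPA8, HSP90AA1, HSP90AB1, HSPB1 and HSPD1 came to at most 1.34% of those of the parent gene.

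Levels per length are compared between genes here only within acrylonitrile-treated RNA, as all PDP libraries were treated. Several members differed in level between RNA with acrylonitrile alone and untreated RNA, so this order need not hold in untreated RNA. HSPB1, for example, averaged 189 CPM after TMM normalization with acrylonitrile alone against 66.0 in untreated RNA, and HSPD1 105 against 454. The level of HSPA1B counts only its uniquely mapped fragments. In cells without PDP, fragments scaled to library size and to the length of 1 annotated transcript (FPKM, mean ± SD, n = 2) were 218 ± 1.48 for the small heat shock protein HSPB1, 143 ± 0.355 for the constitutive cytosolic HSP90 gene HSP90AB1, 107 ± 1.98 for the constitutive HSP70 gene HSPA8 and 94.3 ± 3.82 for the inducible HSP90 gene HSP90AA1. They were 61.4 ± 2.74 for the mitochondrial HSP60 gene HSPD1, 57.6 ± 0.939 for its HSP10 partner HSPE1, 43.7 ± 1.84 for the J-domain gene DNAJB1, 29.0 ± 0.282 for the HSP110 nucleotide exchange factor HSPH1 and 3.37 ± 0.518 for HSPA1B. Neighbors in this order were further apart than their SDs, with HSPD1 and HSPE1 the closest pair.

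The conversion experiment asked first whether 24 h of s4U and acrylonitrile together mark RNA. They marked the majority of fragments of 9 members, HSPA1A aside. HSPA8 fragments carried a mismatch in 96.9% and 95.3% of cases with s4U and acrylonitrile, against 11.9% and 9.45% with s4U alone, 5.49% and 4.52% with acrylonitrile alone, and 6.25% and 5.68% in untreated RNA. The small heat shock protein HSPB1 was lowest, with 59.8% and 54.1% with s4U and acrylonitrile, against 13.3% and 8.58% with s4U alone, 5.83% and 6.19% with acrylonitrile alone, and 5.76% and 5.05% in untreated RNA. In between, the shares with s4U and acrylonitrile were 94.0% and 96.5% for HSPE1, 94.4% and 93.4% for DNAJB1, 82.9% and 84.5% for HSP90AB1, 82.8% and 77.9% for HSPH1, 74.8% and 75.8% for HSPD1, and 67.3% and 70.8% for HSP90AA1. Among genes with at least 20 fragments a library, the median was 91.7% in this group, 11.4% with s4U alone, 7.40% with acrylonitrile alone and 7.21% in untreated RNA. Thus HSPA8, HSPE1 and DNAJB1 lay above the median of genes and the other 5 named here lay below it.

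For the 8 genes with at least 20 fragments in every library, both libraries with s4U and acrylonitrile lay above all 6 control libraries. The medians over all genes were also far apart (91.7% against 11.4% or less), so this is not particular to the chaperones. The share of all genes separated in this way was not counted. A 2-sided exact permutation test of 2 against 6 libraries gave p = 0.0357 for each when the absolute difference of means was ranked over all splits, the smallest value this design can give. Doubling the smaller tail, the first convention run, gave 0.0714 for each, so no weight is placed on which side of 0.05 these fall. Marked fragments carried several mismatches with both treatments, for example 5.06 per marked HSPA8 fragment and 3.03 per marked HSPB1 fragment, against 1.23 and 1.21 in untreated RNA. Counting only fragments with at least 2 mismatches, the share with both treatments was 91.8% for HSPA8 and 44.9% for HSPB1.

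**Figure D1:**
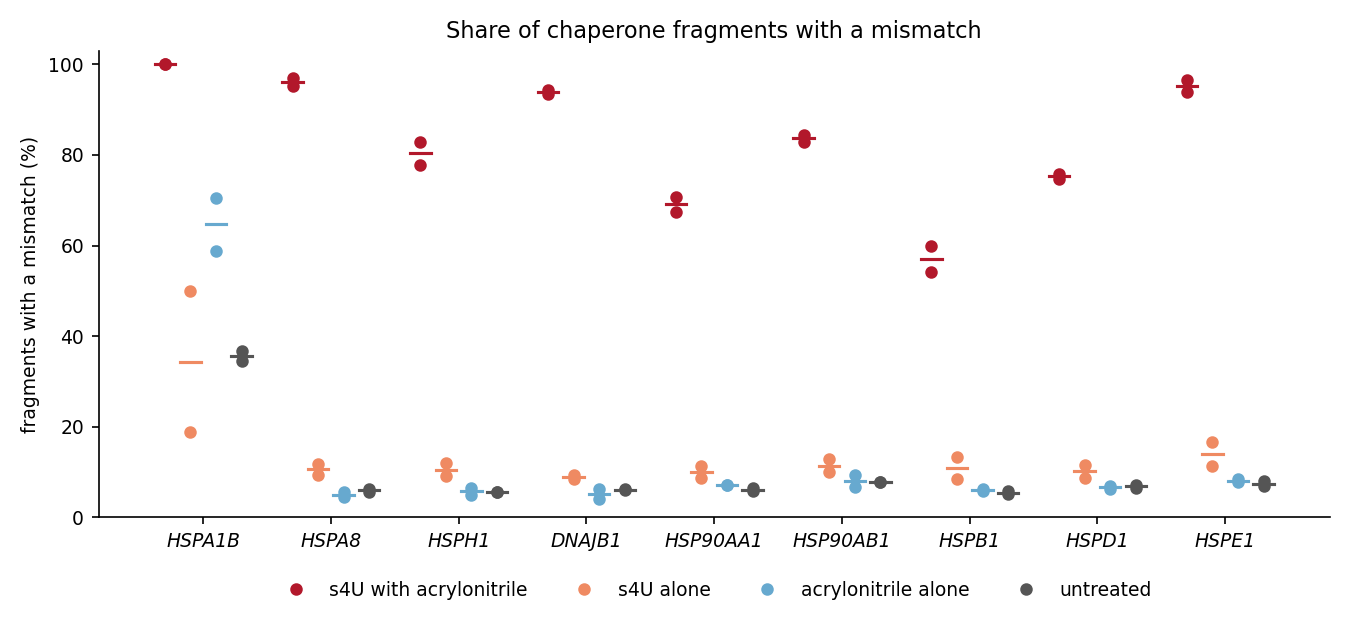
Share of fragments with a mismatch (%) for 9 chaperone genes in the conversion experiment, of which HSPA1B had under 20 fragments in 4 control libraries. Points are single libraries and lines are means of 2. The libraries with s4U and acrylonitrile lie between 54.1% and 100%, and HSPA1B stands out in the control groups.

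HSPA1B differed from the other members in RNA that never saw s4U. Without s4U, mismatches were carried by 10 of 17 and 12 of 17 of its fragments with acrylonitrile alone and by 9 of 26 and 11 of 30 in untreated RNA. Pooled, this was 64.7% (95% Wilson interval 47.9 to 78.5) with acrylonitrile alone and 35.7% (24.5 to 48.8) in untreated RNA. Among genes with at least 34 pooled fragments with acrylonitrile alone, 10 of 13791 (0.0725%) had as high a share, and among those with at least 40 in untreated RNA, 51 of 15772 (0.323%). With s4U and acrylonitrile, all 80 and all 66 HSPA1B fragments carried a mismatch, with 4.80 mismatches per marked fragment, against 1.13 with acrylonitrile alone and 1.16 in untreated RNA. With s4U alone the gene had 16 and 2 fragments, of which 3 and 1 were marked. As 4 of its 6 control libraries held under 20 fragments, its shares were not tested. Intervals here cover counting error only. The mismatch tables do not name the kind of mismatch, and the part of base differences between HSPA1A and HSPA1B copies in these shares was not tested.

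The experiment also asked whether labeling or the chemistry shifts transcript levels. Levels are fragment counts scaled to library size after TMM normalization (CPM), tested with edgeR's quasi-likelihood fit, with p adjusted by Benjamini and Hochberg's method over 18914 genes, of which 9 are members. With s4U alone against untreated RNA, 5 members rose and 1 fell, while 35.8% of all genes rose and 34.7% fell (4810 and 8057 genes with all-fragment scaling, against 6767 and 6560). The median over the 9 members was 0.42 on the log2 scale and that over all genes 0.02. HSP90AA1 had 1421 and 1219 CPM with s4U alone, against 746 and 750 in untreated RNA (log2 change 0.82 ± 0.16 SE, adjusted p = 0.000957). HSP90AB1 had 1529 and 1369 against 802 and 793 (0.86 ± 0.15, adjusted p = 0.000511). DNAJB1 had 102.7 and 66.95 against 43.6 and 44.9 (0.94 ± 0.18, adjusted p = 0.000894). The 2 s4U libraries of DNAJB1 were far apart.

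HSPE1 had 400 CPM in s4U-alone replicate 1 and 85.3 in replicate 2, against 57.5 and 57.8 in untreated RNA (log2 change 2.07 ± 0.51, adjusted p = 0.00458). Replicate 1 decided the size of this rise: without it the log2 change was 0.57 and without replicate 2 it was 2.79, both still past the threshold. The change of HSPH1 was 0.42 ± 0.13 (adjusted p = 0.015), with 90.8 and 73.4 CPM against 59.5 and 62.9, and it missed the threshold without untreated replicate 1 (0.38, adjusted p = 0.112) or 2 (0.46, adjusted p = 0.0617). HSPA1B had 1.25 and 0.125 CPM with s4U alone, against 1.79 and 2.27 in untreated RNA (−1.64 ± 0.60, adjusted p = 0.0318). That call rests on 18 fragments and was lost without s4U-alone replicate 2 (−0.68, adjusted p = 0.131), and without untreated replicate 1 (−1.80) or 2 (−1.45). HSPA8 (0.30), HSPB1 (0.28) and HSPD1 (0.35) did not pass, but HSPA8 passed without s4U-alone replicate 1 (0.55), HSPB1 without replicate 2 (0.68) and HSPD1 without either one (0.38 and 0.32).

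The chaperones split with acrylonitrile treatment of unlabeled RNA, whose libraries also had fewer fragments inside genes (70.9% and 68.6%, against 90.6% in both untreated libraries). The part of this share in the changes was not tested. Against untreated RNA, 4 members fell and 3 rose, with 30.7% and 29.1% of all genes doing so (9509 and 2245 genes with all-fragment scaling, against 5804 and 5499). HSP90AA1 fell to 237 and 221 CPM, against 746 and 750 in untreated RNA (−1.71 ± 0.16, adjusted p = 1.88e-05). HSPD1 had 110 and 99.7 against 455 and 454 (−2.11 ± 0.16), HSPA8 had 113 and 103.2 against 336 and 332 (−1.63 ± 0.18), and HSP90AB1 had 287 and 248 against 802 and 793 (−1.58 ± 0.15). HSPB1 went the other way, with 185 and 194 against 64.4 and 67.6 (1.52 ± 0.27, adjusted p = 0.000762).

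The HSPB1 rise was 0.04 (adjusted p = 0.933) once a GC term entered the fit. The transcript of HSPB1 is 65.25% GC, and the median of coding genes is 49.1%. Those of the members that fell, HSPD1, HSP90AA1, HSPA8 and HSP90AB1, are 41.7%, 41.6%, 45.3% and 47.2%. Those of HSPH1 and DNAJB1, which rose, are 39.6% and 52.8%, and those of HSPE1 and HSPA1B 39.3% and 58.8%. The part of GC in these changes was not tested beyond that fit. DNAJB1 had 70.6 and 70.7 CPM with acrylonitrile alone, against 43.6 and 44.9 (0.68 ± 0.18, adjusted p = 0.00907), and HSPH1 had 89.4 and 79.8 against 59.5 and 62.9 (0.47 ± 0.14, adjusted p = 0.0125). Both changes turned negative when all fragments of the library were used for scaling (−0.02 and −0.22), a setting that moved the median of all genes to −0.76, against −0.07 with TMM. The DNAJB1 call was lost without untreated replicate 1 (adjusted p = 0.0514) or either acrylonitrile library (0.0697 and 0.063), and that of HSPH1 without acrylonitrile replicate 1 (0.139) or either untreated library (0.0962 and 0.0549). HSPE1 (−0.83, adjusted p = 0.216) and HSPA1B (0.82, adjusted p = 0.224) did not pass.

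**Figure D2:**
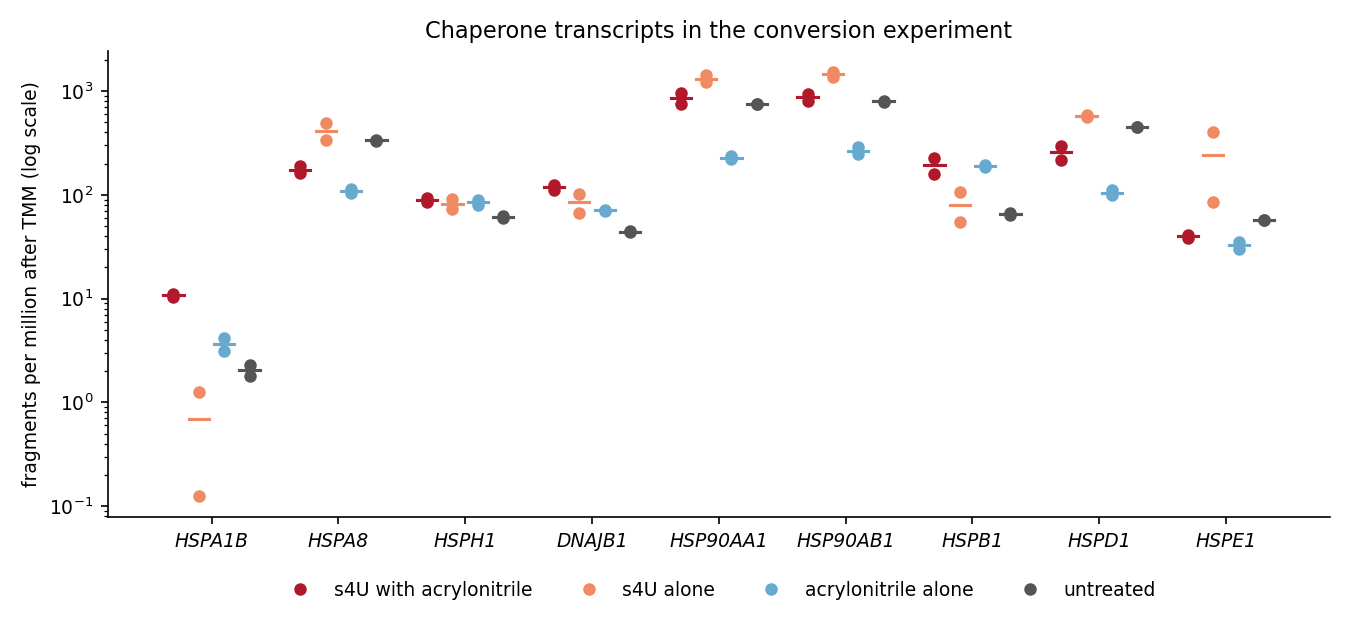
Levels of 9 chaperone genes in the conversion experiment, in CPM after TMM normalization on a log axis. Points are single libraries and lines are means of 2. HSP90AA1, HSP90AB1, HSPA8 and HSPD1 are lowest with acrylonitrile alone, and the s4U-alone libraries of HSPE1 (400 and 85.3) and HSPA1B (1.25 and 0.125) are far apart.

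Set against s4U alone, RNA with both treatments had 3 members higher and 5 lower, with 31% and 34.1% of all genes (3181 and 9534 genes with all-fragment scaling, against 5857 and 6450). HSPA1B was highest in this group, at 10.5 and 11.1 CPM, against 1.25 and 0.125 with s4U alone (4.05 ± 0.54, adjusted p = 0.000103, and 3.08 and 6.29 without s4U-alone replicate 2 or 1). HSPE1 had 41.3 and 38.6 against 400 and 85.3 (−2.60 ± 0.54, and −1.09 without s4U-alone replicate 1 or −3.32 without replicate 2). HSPA8 (−1.24), HSPD1 (−1.17) and HSP90AB1 (−0.73) kept this direction in the 10 alternatives run, and lost the call in 1 of them, HSPD1 with a replicate block and GC term (−0.36, adjusted p = 0.0525). HSP90AA1 was lower at −0.64 ± 0.16, a change of 0.20 with a GC term and of −0.40 (adjusted p = 0.0893) without replicate 2 of the group with both treatments. HSPB1 was higher at 1.27 ± 0.27 but at −0.35 with a GC term, and DNAJB1 at 0.48 ± 0.18 but at −0.12 with all-fragment scaling. The DNAJB1 call was lost without s4U-alone replicate 2 (0.20, adjusted p = 0.0825) or either library of the group with both treatments (0.60 and 0.49). HSPH1 did not pass (0.12, adjusted p = 0.465), but passed at 0.27 without s4U-alone replicate 1 and at −0.49 with all-fragment scaling.

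Within acrylonitrile-treated RNA, 6 members were higher with s4U than without it and none was lower, with 33.2% and 31.1% of all genes in these directions (4686 and 6924 genes with all-fragment scaling, against 6273 and 5877). HSP90AA1 had 950 and 747 CPM with s4U and acrylonitrile, against 237 and 221 with acrylonitrile alone (1.89 ± 0.16, adjusted p = 7.06e-06). HSP90AB1 had 947 and 799 against 287 and 248 (1.71 ± 0.15), HSPD1 295 and 219 against 110 and 99.7 (1.29 ± 0.16), HSPA8 189 and 161 against 113 and 103.2 (0.70 ± 0.18) and DNAJB1 113 and 124 against 70.6 and 70.7 (0.74 ± 0.18). The HSPA8 call was lost with all-fragment scaling (0.44, adjusted p = 0.11). HSPA1B had 10.5 and 11.1 against 3.10 and 4.18 (1.58 ± 0.50, adjusted p = 0.0176), and lost its call without any 1 of these 4 libraries (1.42 to 1.83, adjusted p = 0.0607 to 0.128). HSPB1 (0.03), HSPE1 (0.30) and HSPH1 (0.07) did not pass.

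Whether the s4U difference was the same in acrylonitrile-treated and untreated RNA was tested as an interaction. HSP90AA1 was the 1 member that passed, with a log2 change 1.07 ± 0.22 higher in acrylonitrile-treated RNA (1.89 against 0.82, adjusted p = 0.0474), while 1.28% of genes passed upward and 0.354% downward (155 and 20 genes with all-fragment scaling, against 243 and 67). It passed in 7 of 13 alternatives, with adjusted p between 1.34e-07 and 0.251, and was lost with all-fragment scaling (1.16, adjusted p = 0.0537) and without untreated replicate 1 (1.08) or 2 (1.07), acrylonitrile-alone replicate 1 (1.21) or 2 (1.10), or replicate 1 with both treatments (0.95). For HSP90AB1 (0.84, adjusted p = 0.0792), HSPD1 (0.94, 0.0627) and HSPA1B (3.23, 0.0702) the difference did not pass with all libraries. Without s4U-alone replicate 1, 4 members passed, and without replicate 2 all 9 did, in both directions.

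Half-lives were computed from the labeled share after 1 h without PDP, as minus the labeling time times ln 2 over the natural log of the unlabeled share, the formula that the deposited half-lives of these libraries follow. Among the chaperones, inducible HSPA1B and DNAJB1 had the shortest half-lives and HSPB1 the longest. HSPA1B fragments were labeled in 90.2% and 86.3% of cases (83 of 92 and 69 of 80), a half-life of 0.298 and 0.349 h. DNAJB1 was labeled in 29.4% (95% Wilson interval 26.6 to 32.4) and 27.7% (25.1 to 30.5), a half-life of 1.99 and 2.14 h. HSPA8 had 4.53 and 4.51 h, HSP90AA1 6.77 and 6.16 h, HSP90AB1 6.59 and 6.66 h, and HSPB1 9.42 and 9.15 h. The median of 12811 coding genes was 3.17 h, so HSPA1B and DNAJB1 lay below it and the other 7 members above. HSPE1 averaged 5.70 ± 1.33 h, HSPH1 7.16 ± 0.589 h and HSPD1 7.45 ± 0.806 h (SD, n = 2), within each other's SD in the case of the last pair.

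These values depend on mismatches that are not labels. Removing from each gene its own share with acrylonitrile alone, as measured in the other experiment, gave 0.638 h for HSPA1B, 2.44 h for DNAJB1, 6.87 h for HSPA8, 22.0 h for HSP90AA1, 29.4 h for HSP90AB1 and 54.0 h for HSPB1, and a median of 4.82 h for 12214 coding genes. HSPE1 then had 11.4 and 35.1 h in the 2 libraries, and HSPB1 58.6 and 49.4 h. HSPB1 was labeled in 7.10% (95% Wilson interval 5.96 to 8.43) and 7.30% (6.18 to 8.60) of cases, and the share removed was 5.99%. So little was left that its half-life after removal has no firm upper bound. Other genes with labeled shares near the share removed, such as HSPD1 (8.28% in the first library, 6.53% removed), have the same limit. The HSPA1B share removed rests on 34 fragments. Labels in the PDP experiment are T-to-C mismatches, whereas the mismatches behind the share removed are of unnamed type, so the 2 measures may differ. In the formula values 98.3% of coding genes were shorter than HSPB1 and 25.6% shorter than DNAJB1; after removal these shares were 97.8% and 22.0%. Ranked by labeled share, the 9 genes were ordered alike after 1 h and after 24 h (Spearman rho 0.85, and 0.786 over 8 genes without HSPA1B), which is a description of genes that share libraries and base composition.

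**Figure D3:**
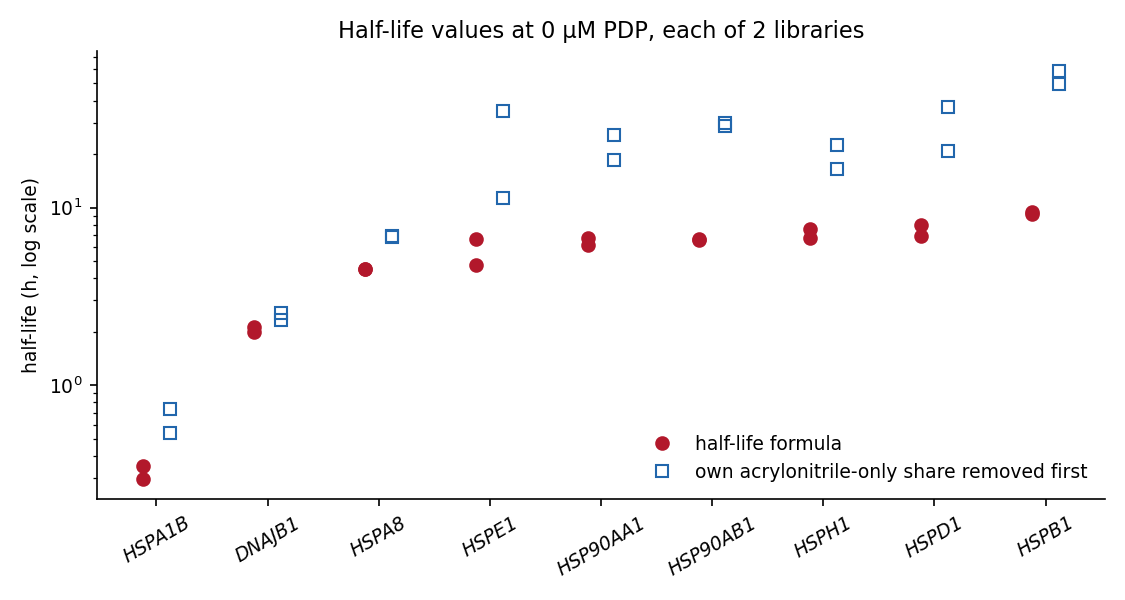
Half-life in h on a log axis for 9 chaperone genes in the 2 libraries without PDP. Filled circles are the formula as the study gives it and open squares the same after removing the share with acrylonitrile alone. HSPA1B and DNAJB1 stay lowest under both, and the genes from HSPE1 to HSPB1 lie between 4.76 and 9.42 h by the formula and between 11.4 and 58.6 h after removal.

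The PDP experiment asked how 20 min of drug followed by 1 h of labeling changes total and new RNA. New RNA is the count of labeled fragments, and values are scaled to all fragments of the library (FPM), tested in the same way with edgeR over 15473 genes for total and 14124 genes for labeled RNA. For total RNA, 6 members rose at 4 µM and 6 at 8 µM, with 51.4% and 51.8% of all genes, and 1 and 2 members fell, with 6.99% and 8.71% of all genes. Under this scaling the median of all genes moved by 0.32 at 4 µM and 0.33 at 8 µM on the log2 scale, whereas TMM, which removes that shift, left it at 0.01 and 0.02 (3902 genes up and 4049 down at 4 µM, 4143 and 4178 at 8 µM). With TMM 4 members rose and 3 fell at each dose, and the changes are therefore given under both.

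The cytosolic HSP90 genes and the mitochondrial HSPD1 rose beyond this shift. HSP90AA1 had 296 and 313 total FPM at 0 µM, 557 and 510 at 4 µM, and 513 and 506 at 8 µM (log2 changes 0.81 ± 0.05 and 0.74 ± 0.05, and 0.50 and 0.44 with TMM). HSP90AB1 had 367 and 366 at 0 µM, 639 and 585 at 4 µM, and 603 and 522 at 8 µM (0.74 and 0.62, and 0.43 and 0.31 with TMM). HSPD1 had 133 and 142, 249 and 219, and 221 and 210 FPM in the same order (0.77 and 0.64, and 0.46 and 0.34 with TMM). For these 3 genes every one of 14 alternatives kept the call at both doses (adjusted p = 3.96e-11 or lower in the tests with all libraries). Their unlabeled RNA carried this: unlabeled HSP90AA1 averaged 273 ± 9.11 FPM at 0 µM, 500 ± 33.0 at 4 µM and 480 ± 3.38 at 8 µM. Labeled HSP90AA1 averaged 31.0 ± 3.22, 33.4 ± 0.270 and 29.8 ± 1.25 FPM in the same order. The doses also differ in depth and in the share of fragments inside genes. An effect of PDP on this RNA and a difference between libraries cannot be told apart.

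HSPE1 had 31.7 and 32.5 total FPM at 0 µM, 46.2 and 47.5 at 4 µM, and 46.9 and 42.3 at 8 µM (0.55 and 0.48, and 0.24 and 0.17 with TMM, the last with adjusted p = 0.085). HSPA8 rose by 0.32 and 0.48, with 245 and 239 FPM at 0 µM, 321 and 284 at 4 µM, and 325 and 352 at 8 µM, but with TMM the change at 4 µM was 0.01 and that at 8 µM 0.18. DNAJB1 had 94.98 and 101, 117 and 113, and 117 and 123 total FPM (0.23 and 0.29), changes that turned to −0.07 and −0.01 with TMM, so its total RNA moved no more than that of the middle gene. The 4 µM change of DNAJB1 also missed the threshold without the first library at 0 µM (0.19, adjusted p = 0.0679). HSPH1 did not pass (−0.09 and −0.08) but lay at −0.40 and −0.38 with TMM. HSPB1 had 170 and 169, 159 and 157, and 149 and 142 FPM. It stood at −0.10 at 4 µM and fell by 0.22 at 8 µM, values that were 0.33 and 0.25 with a GC term and −0.41 and −0.52 with TMM.

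HSPA1B fell in total RNA at both doses. It had 9.42 and 7.57 total FPM at 0 µM, 3.70 and 4.17 at 4 µM, and 3.58 and 3.92 at 8 µM (−1.11 ± 0.17, adjusted p = 1.48e-06, and −1.18 ± 0.18, adjusted p = 6.9e-07), and the call held in 14 of 14 alternatives. Its fragments were mostly labeled at every dose, at 88.2% ± 2.81, 79.4% ± 0.213 and 79.5% ± 2.46 (SD, n = 2), so its total and labeled counts are nearly the same counts. Between 72 and 93 fragments a library stand behind these values, and 64.7% of its fragments carried a mismatch without s4U in the other experiment.

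**Figure D4:**
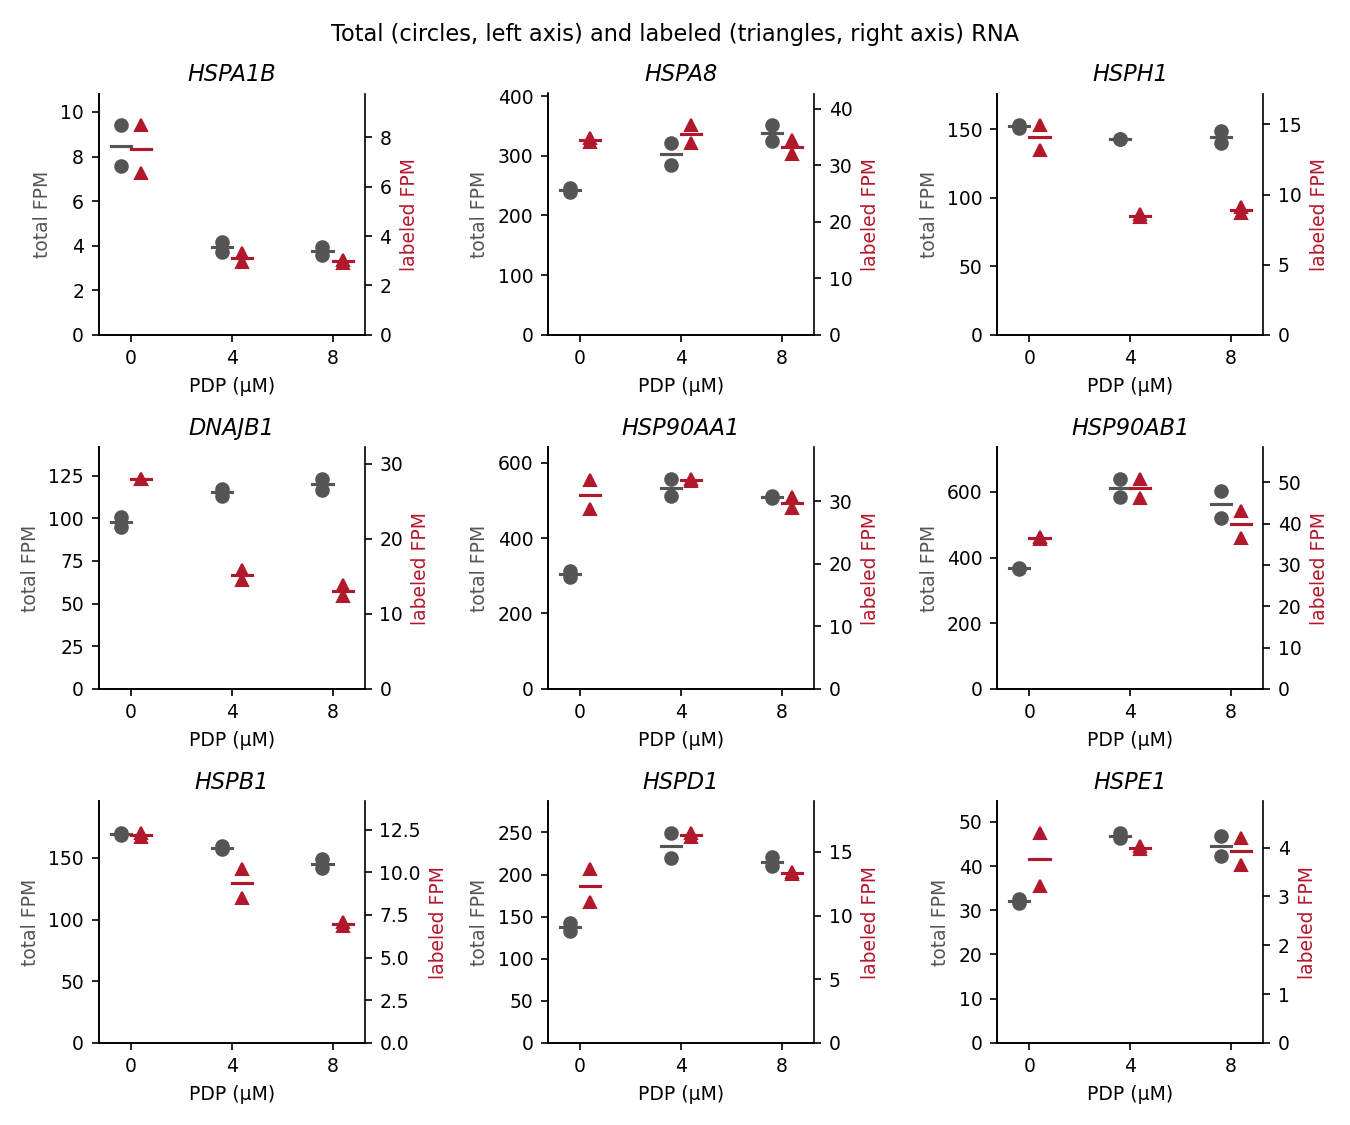
Total FPM (circles, left axis) and labeled FPM (triangles, right axis) of 9 chaperone genes at 0, 4 and 8 µM PDP. Points are single libraries, lines are means of 2, and all axes start at 0. Labeled DNAJB1 drops below 16 FPM at both doses, against 27.9 FPM in both libraries at 0 µM, while its total FPM does not drop.

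Labeled RNA moved differently from gene to gene. At 4 µM 2 members rose and 4 fell, with 9.24% and 19.9% of all genes, and at 8 µM none rose and 4 fell, with 10.3% and 27.5% (2416 and 2839 genes with TMM, against 1457 and 3883). The median over members was 0.04 and −0.06, and over all genes −0.03 and −0.11. DNAJB1, HSPA1B and HSPH1 fell at both doses in each of 14 alternatives. DNAJB1 had 27.9 and 27.9 labeled FPM at 0 µM, 14.6 and 15.8 at 4 µM, and 12.3 and 13.8 at 8 µM (−0.88 ± 0.10, adjusted p = 2.79e-14, and −1.10 ± 0.11, adjusted p = 2.56e-20). Its 4 drug libraries held 254 to 352 labeled fragments each, all from larger libraries than the 273 and 295 fragments at 0 µM. HSPH1 had 13.2 and 14.96 labeled FPM at 0 µM, 8.61 and 8.38 at 4 µM, and 8.67 and 9.09 at 8 µM (−0.73 ± 0.13 and −0.67 ± 0.14). HSPA1B had 8.49 and 6.53, 2.93 and 3.31, and 2.91 and 3.05 labeled FPM (−1.26 ± 0.19 and −1.33 ± 0.20). The drug libraries of all 3 genes lay below both 0 µM libraries, as did those of HSPB1, but the share of all genes that do so was not counted.

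HSPB1 had 12.1 and 12.3 labeled FPM at 0 µM, 8.52 and 10.2 at 4 µM, and 6.84 and 7.08 at 8 µM. Its fall at 8 µM (−0.81 ± 0.15, adjusted p = 5.13e-07) held in 12 of 14 alternatives, and that at 4 µM (−0.38 ± 0.14, adjusted p = 0.0253) in 6. The 4 µM value was 0.08 with a GC term and lost its call without either library at 0 µM (−0.39 and −0.37) or the first at 4 µM (−0.26). HSP90AB1 rose at 4 µM, with 50.8 and 46.3 labeled FPM against 36.6 and 36.2 at 0 µM (0.41 ± 0.08, adjusted p = 9.09e-06), and at 8 µM had 43.1 and 36.5 (0.13, adjusted p = 0.207, but past the threshold at 0.29 with TMM and at 0.24 without the second 8 µM library). HSPD1 had 16.2 and 16.5 labeled FPM at 4 µM against 11.1 and 13.6 at 0 µM (0.40 ± 0.12, adjusted p = 0.0065, lost at 0.26 without the first 0 µM library), and 13.3 and 13.4 at 8 µM (0.11). HSPA8 (0.04 and −0.05), HSP90AA1 (0.10 and −0.06) and HSPE1 (0.10 and 0.08) did not pass at 4 or 8 µM, except that with a GC term HSPA8 (−0.29) and HSP90AA1 (−0.34) passed at 8 µM.

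Labeled against unlabeled RNA of the same library compares both in 1 test. The ratio fell for 7 of 9 members at 4 µM and 7 at 8 µM, while it fell for 45.9% and 54% and rose for 0.262% and 0.637% of all genes, with medians of all genes at −0.48 and −0.59 (−0.05 and −0.06 with TMM, where 1084 and 1703 genes fell and 396 and 679 rose). DNAJB1 changed by −1.40 ± 0.11 and −1.71 ± 0.11 and HSP90AA1 by −0.77 ± 0.08 and −0.87 ± 0.08 at 4 and 8 µM, and these 2 members alone passed in all 7 alternatives at both doses, TMM of the labeled and unlabeled counts included. The labeled share of DNAJB1 was 29.4% and 27.7% at 0 µM, 12.4% and 13.9% at 4 µM, and 10.5% and 11.2% at 8 µM, and that of HSP90AA1 9.73% and 10.6%, 5.96% and 6.57%, and 5.98% and 5.71%. The median share of 14352 genes was 21.0%, 16.3% and 15.5%, and that of the fragments in genes was 17.2% in both libraries at 0 µM, 13.8% and 13.5% at 4 µM, and 12.5% and 13.2% at 8 µM. The ratio of HSPH1 (−0.69 and −0.64), HSP90AB1 (−0.36 and −0.53), HSPA8 (−0.32 and −0.61), HSPD1 (−0.39 and −0.58) and HSPB1 (−0.30 and −0.63) fell with deposited library sizes but not with TMM, where the 4 µM values of HSP90AB1, HSPA8, HSPD1 and HSPB1 were 0.07, 0.11, 0.03 and 0.13. At 4 µM the HSPD1 call was lost without the second 0 µM library (−0.27) or the first 4 µM library (−0.28), and that of HSPB1 without either 0 µM library (−0.32 and −0.28) or the first 4 µM library (−0.16). HSPA1B (−0.98 and −0.96) and HSPE1 (−0.50 and −0.45) did not pass with all libraries, and HSPE1 passed at both doses without the second 0 µM library (−0.75 and −0.70).

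**Figure D5:**
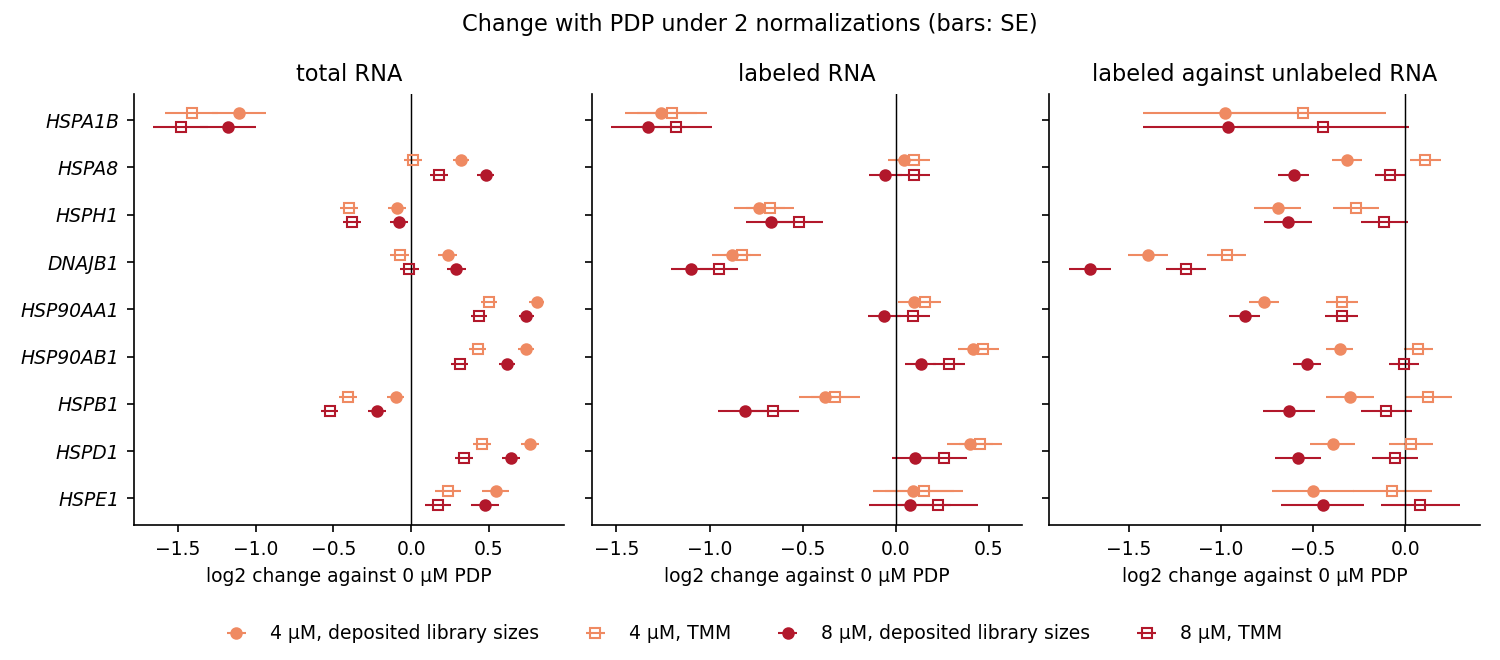
Log2 change against 0 µM PDP of 9 chaperone genes at 4 and 8 µM in total RNA, labeled RNA and labeled against unlabeled RNA, with deposited library sizes (circles) and TMM (squares); bars are SE. Labeled DNAJB1, HSPA1B and HSPH1 lie below 0 under both, and total DNAJB1 lies above 0 with deposited sizes (0.23 and 0.29) but at −0.07 and −0.01 with TMM.

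The 8 µM libraries differed little from the 4 µM libraries. In total RNA edgeR's adjusted test called 0 of 9 members (0.233% of genes rose and 0.0905% fell), while 4 had an unadjusted p under 0.05, against 2 with DESeq2 and 3 with limma, which called none after adjustment either. Without the first 8 µM library HSP90AB1 (−0.23) and HSPA8 (0.22) passed. In labeled RNA HSP90AB1 (−0.28 ± 0.07, adjusted p = 0.00689) and HSPB1 (−0.43 ± 0.13, adjusted p = 0.029) were lower at 8 than at 4 µM, with 0.701% of genes rising and 4.92% falling (100 and 75 genes with TMM, against 99 and 695), and DESeq2 and TMM called neither. The HSP90AB1 call was lost without the first 4 µM (−0.21) or second 8 µM library (−0.17), and that of HSPB1 without the second 4 µM (−0.29) or either 8 µM library (−0.40 and −0.45). DNAJB1 stood at −0.22 ± 0.10 (adjusted p = 0.229).

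The study's own rule for lowered transcripts asks for at least 1 total FPKM in all libraries compared, at least 1 labeled FPKM at 0 µM and a labeled level at least 1.5-fold lower in both replicates at both doses. Of 9 members that could meet it, DNAJB1, HSPA1B and HSPH1 did, beside 660 of 6773 coding genes (9.74%). Per replicate, labeled DNAJB1 stood at 0.521 and 0.565 of the 0 µM level at 4 µM and at 0.440 and 0.495 at 8 µM. Labeled HSPH1 stood at 0.652 and 0.560, and at 0.657 and 0.608, just inside the limit. HSPB1 was outside it at 4 µM, at 0.705 and 0.830, and inside it at 8 µM, at 0.566 and 0.575, and was added when the limit was 1.2-fold, as 2229 genes (32.9%) were. From 2000 bases before the start to the end of the gene, DNAJB1 held 7 G-quadruplex motifs (0.412 per kb, more than 73.0% of coding genes), HSPB1 6 (1.60 per kb), HSPA1B 1 (0.221 per kb) and HSPH1 1 (0.0360 per kb, more than 14.3% of coding genes). Among members whose labeled level did not fall with deposited library sizes, HSPE1 held 0.732 per kb, HSP90AB1 0.455 and HSPA8 0.388. HSP90AA1 held 9 motifs (0.148 per kb) and HSPD1 0.124 per kb, against a median of 0.159 per kb. Thus the 3 genes that met the rule spanned a wide range of motif density.

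Downstream of the annotated gene ends, where the study looked for read-through, only HSP90AA1 had enough fragments to test. It had 5 and 5 downstream fragments at 0 µM, 17 and 16 at 4 µM, and 20 and 11 at 8 µM (0.59 ± 0.53, adjusted p = 0.465, and 0.62 ± 0.53, adjusted p = 0.380, with edgeR's quasi-likelihood test). No difference was detectable at this depth.

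Genes that work with these chaperones were taken from lists chosen with results of these data known. In labeled RNA at 8 µM, 16 of 28 HSP70 and HSP90 cochaperone genes fell and 1 rose, where 27.5% of all genes fell and 10.3% rose, with a median of −0.41 against −0.11 for all genes. With TMM 12 fell and 2 rose (median −0.25, against 0.04 for all genes). STUB1, a ubiquitin ligase that acts on HSP70 clients, changed by −1.01, SGTA, a tetratricopeptide cochaperone, by −0.88, and TOMM34, which links HSP70 and HSP90 to mitochondrial import, by 0.52. Of 12 other HSF1 targets 6 fell and none rose (median −0.30, and 3 fell with TMM), among them FKBP4, an HSP90-bound immunophilin, at −0.82 and BAG3, an HSP70 nucleotide exchange factor, at −0.71. HSF1 itself changed by −0.85 in labeled RNA at 8 µM and by −0.56 at 4 µM, HSF4 by −1.04 at 8 µM, and HSF2 stood at 0.65 (adjusted p = 0.0655). In total RNA at 8 µM HSF2 rose by 1.28 while HSF1 stood at −0.10 (adjusted p = 0.074).

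The other lists are read against the same 27.5% of all genes that fell and 10.3% that rose in labeled RNA at 8 µM. Of 38 other J-domain genes 9 fell and 2 rose (median −0.19), against 4 and 4 with TMM, and of 10 other HSP70 and HSP110 genes 2 fell and 2 rose (median −0.04), against none and 3 with TMM. The J-domain share that fell was thus near that of all genes. Of 14 TRiC chaperonin and prefoldin genes, which fold actin and tubulin, 2 fell and 1 rose, with a median of 0.03, against none and 3 with TMM. Mitochondrial chaperones and proteases had 4 of 13 lower and 1 higher, again near the shares of all genes (3 and 1 with TMM), with the protease genes LONP1 and SPG7 at −0.87 and −0.62 and the mitochondrial HSP70 gene HSPA9 at 0.49. Immediate early genes, which respond to many stresses, had 7 of 13 higher and 2 lower (8 and 1 with TMM), with JUN at 2.44, DUSP1 at 1.97, ZFP36 at −0.89 and JUNB at −0.75.

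After 24 h of s4U alone, 19 of 28 cochaperone genes rose and 3 fell, where 35.8% of all genes rose and 34.7% fell, with a median of 0.59 against 0.02 for all genes. With all-fragment scaling 12 rose and 4 fell (median 0.24, against −0.32 for all genes). GRPEL1 and GRPEL2, exchange factors of the mitochondrial HSP70, changed by 1.83 and 1.74, FKBP5, an HSP90-bound immunophilin, by −2.11 and STUB1 by −1.99. Of 13 other HSF1 targets 8 rose and 1 fell (median 0.78), against 6 and 2 with all-fragment scaling, led by ZFAND2A, an arsenite-inducible proteasome-associated gene, at 2.97 and CACYBP at 1.44, with HSPA4L at −0.996. HSF2 rose by 0.77, HSF1 stood at −0.29 (adjusted p = 0.0634) and 13 of 17 immediate early genes fell and 1 rose (16 and 1 with all-fragment scaling), with EGR3 at −4.66, EGR1 at −4.60 and KLF6, the riser, at 1.40.

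The genes whose labeled level followed that of a member most closely over the 6 PDP libraries were found by Pearson's r of log2(FPM + 0.1) among 6075 genes with a mean of at least 5 labeled FPM. For DNAJB1 they were CAPN15 (r = 0.9997), NR2F6 and UBE2M, for HSPH1 RBCK1 (r = 0.999), ZIC5 and LRRC58, and for HSPB1 ZNF414 (r = 0.995), CCDC137 and NANS. With 6 libraries that fall into 3 doses and that share their depth differences, such values are descriptions.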

How the data were processed

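The members and the gene lists were chosen with earlier results of these data known. Polyadenylated RNA of HEK293T cells was sequenced as stranded paired fragments on an Illumina HiSeq X instrument. Per the study's methods, the authors trimmed reads with cutadapt 1.18, removed fragments of identical sequence and ribosomal RNA, aligned to hg19 with HISAT2 2.1.0, kept unique proper pairs and left out known variants and low-quality mismatches. Sites with frequent mismatches in control samples were also treated as variants and dropped from all samples. Control libraries thus helped to decide which mismatches count. The tool that counted fragments, and whether it used strand, are not given in the sources read here. Removing identical fragments can lower counts of short, abundant transcripts, and unique mapping those of near-identical genes.

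The deposited tables hold raw fragment counts per gene by number of mismatches in the conversion experiment, and other values joined as text strings that were split back into counts. For the PDP experiment the authors gave raw counts of total, labeled, upstream and downstream fragments and the same scaled to all fragments of the library (FPM, an RPM unit). A labeled fragment is one with a T-to-C mismatch. Mismatches in the conversion tables are of unnamed type. The deposited other columns hold library size, used for scaling, and the authors' half-life, which was not printed.

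Counts were tested in R 4.3.3 with edgeR 4.0.16 quasi-likelihood fits over all genes that passed filterByExpr (conversion experiment) or had a mean of at least 1 total, 0.5 labeled or 0.5 downstream FPM (PDP experiment), with Benjamini-Hochberg adjustment at 0.05. TMM was used in the conversion experiment and deposited library sizes in the PDP experiment. The labeled-to-unlabeled ratio was an interaction within libraries. Alternatives were TMM or all-fragment library sizes, no filter, a GC spline with 6 df, a replicate block, DESeq2 1.42.0, limma 3.58.1 with pseudocounts of 0.1, 0.01 and 1, and leaving out each library. Scaling to fragments in genes, the other scaling of the gene lists and the comparison of 8 with 4 µM were added after seeing the data. Fits were tested on simulated data. Tests of mismatch shares and their medians over genes needed 20 fragments a library. Their exact test was first run with a doubled tail, then with the absolute difference, and both p are given. Members were named in full, and from each list up to 2 genes that rose and 2 that fell most, with HSF1 and HSF2. FPKM used the length of 1 GENCODE transcript a gene. Wilson intervals are 95% and cover counting error only. Figures used Matplotlib 3.10.9.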

Additional observations from a re-analysis of the deposited data

Results flagged for a closer look

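The log2 change of HSP90AA1 with s4U was larger in acrylonitrile-treated RNA (1.89) than in RNA without acrylonitrile (0.82), a difference of 1.07 ± 0.22 with adjusted p = 0.0474 in edgeR's quasi-likelihood interaction test. All 4 s4U libraries lay above their controls. HSP90AA1 had 950 and 747 CPM with s4U and acrylonitrile against 237 and 221 with acrylonitrile alone, and 1421 and 1219 with s4U alone against 746 and 750 in untreated RNA. Over 13 alternatives adjusted p ranged from 1.34e-07 to 0.251, and 7 kept the call. The s4U dose differs between the labels of the groups with and without acrylonitrile, and its part in this difference cannot be told apart.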

How the results depend on the processing

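Over 1371 comparisons of a member result with an alternative, 1204 kept their side of the threshold, of which 57 that never passed it changed sign, 87 lost the call, 58 gained one, and 22 changed sign with a call on at least 1 side. Of 512 that left out 1 library 451 kept their side (18 uncalled ones changed sign), 39 lost and 22 gained the call, and 0 changed sign with a call. The cause of the changes was not tested. With all-fragment library sizes the acrylonitrile-alone change of HSPH1 was −0.22 and of DNAJB1 −0.016, and against s4U alone the change with both treatments was −0.49 for HSPH1 and −0.12 for DNAJB1. With a GC term, without and with a replicate block, that change was −0.35 and −0.31 for HSPB1 and 0.20 and 0.20 for HSP90AA1, total HSPB1 was 0.33 and 0.33 at 4 µM and 0.25 and 0.25 at 8 µM, and labeled HSPB1 at 4 µM 0.0777 and 0.0772. Total DNAJB1 was −0.074 at 4 µM and −0.011 at 8 µM with TMM, and −0.081 and −0.031 with DESeq2. The labeled-to-unlabeled ratio at 4 µM with TMM was 0.0318 for HSPD1, 0.0705 for HSP90AB1, 0.13 for HSPB1 and 0.11 for HSPA8.

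Counts of called members moved by over 1.5 times in a few places. Both treatments against s4U alone gave 5 with a replicate block and GC term, against 8. The interaction gave 0 with all-fragment sizes, 5 with no filter, 3 with a GC term, 3 with block and GC term, and 0 to 9 with 1 library left out, against 1. Labeled RNA at 8 against 4 µM gave 0 with TMM, 0 with DESeq2, and 1 each with no filter, block and GC term, limma at any of 3 pseudocounts and in-gene sizes, and 0 to 1 with 1 library left out, against 2. Total RNA there gave 0 to 2 with 1 library left out, against 0. The ratio gave 2 at each dose with TMM, against 7. The median marked share over members was 74.97% for at least 2 mismatches, against 83.7%, and the median half-life 22.0 h with the acrylonitrile share removed and 6.59 to 6.64 h with 1 library left out, against 6.47 h.

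Replicate numbers did not pair the libraries (correlations of deviations −0.029 to 0.041), and the replicate block kept all 117 member results, with 6, 7, 8, 6 and 1 members called in the conversion comparisons. Depth limits HSPA1A, HSPA1B in the conversion libraries and all downstream fragments except HSP90AA1, for which no difference could be seen.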
